A study of Arabidopsis thaliana with 6 samples.

Results

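Transcripts of 3 protease genes were followed in Arabidopsis thaliana seedlings that differ in brassinosteroid state: AT1G02300, a cathepsin B-like cysteine protease, AT5G36260, an aspartyl protease, and the subtilase SBT4.12 (AT5G59090). Each was read by 1 probe set of the ATH1 array (259441_at, 246616_at and 247755_at), and the 3 stand among 22746 probe sets that are not controls. They were chosen by their difference between the genotypes in these same arrays, so that difference is given as a description and no test is read from it. Their products belong to families that usually enter the secretory route, but the arrays measured RNA alone, and neither secretion nor protease activity was measured.

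Whole seedlings of 2 mutants in the Columbia-0 background were compared. In bzr1-1D a dominant allele keeps BZR1, the transcription factor on which brassinosteroid signalling ends, constantly active. In det2 a steroid reductase needed to make the hormone is missing. Seedlings of either genotype were grown for 5 days in shaken liquid Murashige and Skoog medium with sucrose at 22 °C in constant light. A mock treatment of 3 hours followed. The labels list 80% ethanol for the mock, which is not read here as its concentration in the medium. The seedlings of each array had been raised together in a flask, so an array averages many plants. There were 3 experiments in separate weeks, each with 1 array per genotype and both genotypes grown side by side, so that n = 3 for either. Wild-type arrays are not used here.

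Brassinosteroids are plant steroid hormones that promote cell expansion. The hormone is perceived at the cell surface, and the signal ends in the nucleus with BZR1 and its relatives, which raise some genes and repress others. Proteases of the secretory route mature or degrade proteins of the cell wall, the vacuole and the space between cells. Papain-like enzymes such as cathepsin B cut with an active-site cysteine, pepsin-like aspartyl proteases with a pair of aspartates, and subtilases with a serine; plant subtilases include enzymes that release peptide signals from their precursors.

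Over the 6 arrays the median intensity ran from 212.75 to 221.4, and between 19.6% and 21.5% of probe sets lay below an intensity of 50. The genotypes could not be checked on BZR1 and DET2, for which the annotation used names no probe set. Of 11 marker genes of seedling tissues, 4 had a named probe set. PORB, a chlorophyll synthesis enzyme of green tissue, was bright on every array (5322.4 to 9402.5) and moved with the genotype. It was at 7160.6, 9402.5 and 7720 in bzr1-1D, against 5322.4, 6042.3 and 6252.7 in det2, so its groups do not overlap, and it differed in the direction of AT1G02300 and AT5G36260. Its log2 difference was 0.45 ± 0.14 (SE; limma, unadjusted p = 0.0232, adjusted p = 0.7), and its part in the differences of these genes was not tested. In whole seedlings, fewer cells of a type and less RNA per cell cannot be told apart. EXPA7 and EXPA18, expansins of root hairs, were measured at 44.2 to 291.5, and the seed storage protein PAP85 was between 43.1 and 127.5. Signs of RNA completeness moved with the groups in part. For actin, signal of the 3′ over that of the 5′ probe set was 1.22 to 1.25 in bzr1-1D and 1.27 to 1.38 in det2, and the same ratio for GAPDH was 0.757 and 0.800 in experiment 1 against 0.461 to 0.496 in the other experiments. The part of either ratio in the results below was not tested.

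AT1G02300 was brighter in bzr1-1D. Its intensity in bzr1-1D was 1089.9, 878.2 and 629.1 in experiments 1, 2 and 3. In det2 it was 352.4, 145.2 and 195.4 in the same order. The lowest bzr1-1D array thus lay above the highest det2 array, and det2 of experiment 1 was the brightest of its group, as bzr1-1D of experiment 1 was of its own. The bzr1-1D mean was 866 ± 231 (SD, n = 3), that of det2 231 ± 108 (SD, n = 3). Within an experiment bzr1-1D exceeded det2 by 3.09-fold, 6.05-fold and 3.22-fold in experiments 1, 2 and 3. The log2 difference of intensity plus 50, bzr1-1D minus det2, was 1.50, 2.25 and 1.47, with a mean of 1.74 ± 0.21 (SE). By size on the higher side it ranked 24 of all probe sets in experiment 1, 142 in experiment 2, 143 in experiment 3 and 18 for the mean.

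AT5G36260 was also brighter in bzr1-1D, but at the dim end of the arrays. Its intensity in bzr1-1D was 150.2, 107.4 and 154.6 in experiments 1, 2 and 3. In det2 it was 26.4, 57.1 and 16.9. The groups do not overlap, but in det2 only experiment 2 gave a value above 50, and there the gap was narrowest. Between 10.6% and 22.3% of all probe sets were dimmer than this one on the det2 arrays, against 34.9% to 42.5% on the bzr1-1D arrays. The files used hold no detection call, so whether the det2 signal exceeded background is not known. On the intensity scale bzr1-1D exceeded det2 by 5.69-fold, 1.88-fold and 9.15-fold, ratios that rest on dim denominators. The log2 difference of intensity plus 50 was 1.39, 0.56 and 1.61, with a mean of 1.19 ± 0.24 (SE); this scale understates dim genes, and an offset of 16 gave a mean of 1.70, no offset one of 2.20. By size on the higher side the gene ranked 32 in experiment 1, 2289 in experiment 2, 106 in experiment 3 and 94 for the mean.

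SBT4.12 went the other way, with the brighter signal in det2. Its intensity in det2 was 759, 1464.3 and 1905.8 in experiments 1, 2 and 3. In bzr1-1D it was 355.5, 138.1 and 299.9. The dimmest det2 array was 2.14-fold above bzr1-1D of the same experiment, the smallest gap of the gene, and the groups do not overlap. In experiments 2 and 3 det2 exceeded bzr1-1D by 10.6-fold and 6.35-fold. The bzr1-1D mean was 264.5 ± 113 (SD, n = 3), that of det2 1376 ± 578 (SD, n = 3). The log2 difference of intensity plus 50, bzr1-1D minus det2, was -0.996, -3.01 and -2.48, with a mean of -2.16 ± 0.41 (SE). Without experiment 1 the mean was -2.75. By size on the lower side the gene ranked 222 in experiment 1, 38 in experiment 2, 26 in experiment 3 and 16 for the mean of all 3.

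The summed intensity of the 2 root hair markers, EXPA7 and EXPA18, moved with the genotype in the same direction as SBT4.12. It was 331.3, 130.8 and 333.1 in bzr1-1D, against 430.1, 549 and 419.7 in det2 for experiments 1, 2 and 3. The log2 difference was -0.82 ± 0.32 (SE; limma, adjusted p = 0.726) for EXPA7 and -0.57 ± 0.28 (SE; limma, adjusted p = 0.743) for EXPA18. In experiment 3 EXPA18 hardly differed, at 196.2 in bzr1-1D against 201.3 in det2. Both the marker sum and SBT4.12 had their lowest value on the bzr1-1D array of experiment 2. Within det2 the marker sum was lowest in experiment 3, at 419.7, near the 430.1 of experiment 1, while SBT4.12 was highest in experiment 3, at 1905.8. The 2 markers differed in this. EXPA7 in det2 was 205.7, 257.5 and 218.4 in experiments 1, 2 and 3, thus lowest in experiment 1, as was SBT4.12, at 759. EXPA18 in det2 was 224.4, 291.5 and 201.3, thus lowest in experiment 3. The part of tissue makeup in the SBT4.12 difference was not tested.

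**Figure D1:**
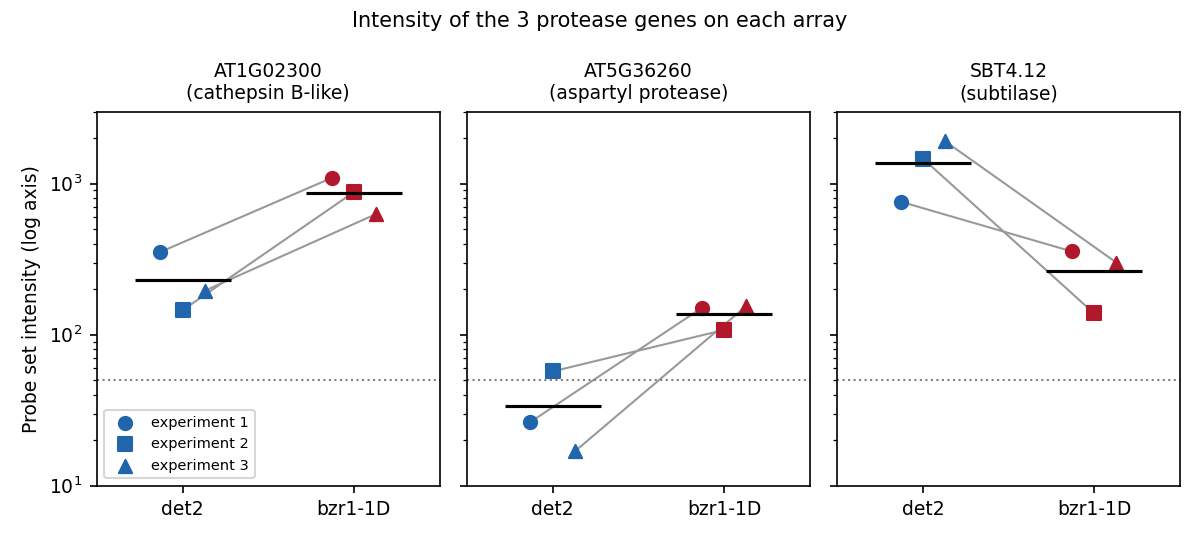
Probe set intensity on a log axis for each of the 3 genes on the 3 det2 arrays (blue) and the 3 bzr1-1D arrays (red), with grey lines joining arrays of the same experiment, black bars at the group means and a dotted line at an intensity of 50. AT1G02300 and AT5G36260 lie higher in bzr1-1D and SBT4.12 lies higher in det2 in each experiment.

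All 3 genes kept 1 direction in the 3 experiments and had groups that do not overlap, a pattern that their choice favours and from which nothing is read. Over all probe sets, 3.74% had every bzr1-1D array above every det2 array and 5.58% had every one below. By limma with a block for the experiment, and with Benjamini-Hochberg adjustment, the genotype difference passed an adjusted p of 0.05 in 0 of 22746 probe sets (0%), while 1556 (6.84%) had an unadjusted p under 0.05. None of the 3 genes is therefore called.

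Differences between experiments were not used to choose the genes and could be tested, although the residual spread that helped to choose them enters that test too. On the scale of log2 intensity plus 50, AT1G02300 had a mean level of 9.40 in experiment 1 and of 8.73 and 8.67 in experiments 2 and 3, differences of -0.67 and -0.73 ± 0.25 (SE) from experiment 1. SBT4.12 stood at 9.16, 9.06 and 9.69, and AT5G36260 was the most even, at 6.95, 7.02 and 6.87. None passed the test: limma's F test over the 3 experiments gave an adjusted p of 0.468 for AT1G02300, 0.751 for SBT4.12 and 0.961 for AT5G36260. No probe set passed it (0%), with 2524 (11.1%) at an unadjusted p under 0.05. The spread of experiment means was larger than that of 87.1% of probe sets for AT1G02300, 82.1% for SBT4.12 and 16.7% for AT5G36260. For SBT4.12 the experiments moved the genotypes in opposite directions: against experiment 1, det2 was higher by 0.90 in experiment 2 and 1.27 in experiment 3 on the log2 scale, while bzr1-1D was at -1.11 and -0.21. AT1G02300 was below its experiment 1 level in both later experiments in either genotype, by -1.04 and -0.71 in det2 and -0.30 and -0.75 in bzr1-1D. These are single arrays, and the differences between genotypes in this respect were not tested.

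The next locus to AT1G02300 on chromosome 1 is AT1G02305, also of the cathepsin B group, and it showed no such gap. Its intensity was 2032.6, 2019.2 and 1682.7 in bzr1-1D, against 2172.9, 1947.9 and 1987.5 in det2. The groups overlap, and the log2 difference was -0.09 ± 0.13 (SE; limma, adjusted p = 0.904). The other gene of the group, AT4G01610, was bright, at 3013 ± 541 (SD, n = 3) in bzr1-1D against 3897 ± 1052 (SD, n = 3) in det2. Its log2 difference was 0.41, -0.65 and -0.79 in experiments 1, 2 and 3 (limma, adjusted p = 0.818). Of the 3 cathepsin B-like genes, AT1G02300 alone thus had arrays of the genotypes apart; its difference from its relatives was not tested, since it was chosen by that gap. How far the probe sets of such similar genes pick up each other's transcripts was not tested.

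AT1G65240, an aspartyl protease gene taken from general knowledge of the family as a near relative of AT5G36260, had groups apart in the same direction. It stood at 131.1, 123.2 and 124 in bzr1-1D, against 106.6, 51 and 30.9 in det2. The bzr1-1D arrays were close to one another and the det2 arrays were not. The log2 difference was 0.70 ± 0.21 (SE) and did not pass over all probe sets (limma, unadjusted p = 0.0231, adjusted p = 0.7). Both genes were dimmest on the det2 array of experiment 3, but in experiment 2, where the gap of AT5G36260 was narrowest, that of AT1G65240 was 0.78 against 0.21 in experiment 1.

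SBT4.12 belongs to a run of subtilase genes on chromosome 5, of which 7 others between AT5G58820 and AT5G59190 were measured. They were dim: the highest of their 42 values was 166.1, and 4 of the 7 never reached 100. Of the 7, 6 were lower and 1 was higher in bzr1-1D, with log2 differences from -0.40 to 0.33, and 0 passed over all probe sets by limma. AT5G59190 had groups apart, at 66.5, 97.1 and 77.8 in bzr1-1D, against 109.7, 118.9 and 134.7 in det2 (limma, unadjusted p = 0.0378, adjusted p = 0.712). SBT4.13, the other gene of the run with a subtilase 4 symbol, was at 42.4 to 71.1 over all 6 arrays, with a log2 difference of -0.12 ± 0.14 (SE). AT5G59100, the nearest measured subtilase gene to SBT4.12, had -0.30 ± 0.14 (SE) at intensities of 7.8 to 109.5.

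**Figure D2:**
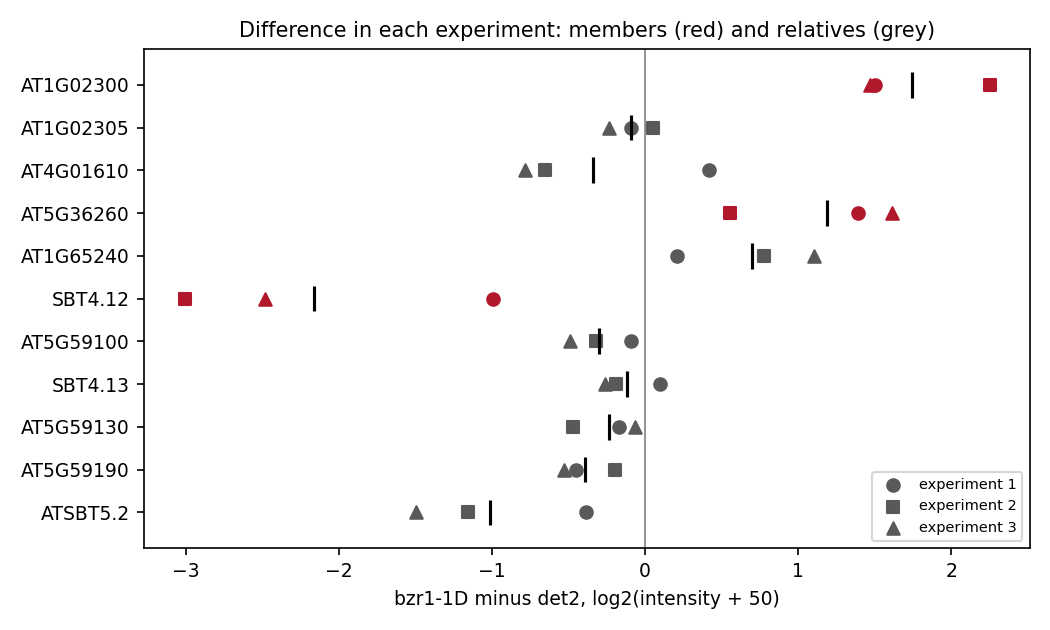
Log2 difference of intensity plus 50, bzr1-1D minus det2, for the 3 genes (red) and 8 relatives (grey), with 1 symbol for each experiment and a black bar at the mean. AT1G02305 and the subtilase genes from AT5G59100 to AT5G59190 lie closer to 0 than the red points of their family, AT1G65240 lies to the right in all 3 experiments, and ATSBT5.2 lies to the left in all 3.

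The wider protease families were counted in 7 lists of 176 genes, of which 111 had a named probe set. Without the 3 chosen genes, 54 of 108 had a higher and 54 a lower mean in bzr1-1D, and 0 passed over all probe sets by limma (0%). At an unadjusted p under 0.05, 10 (9.26%) were higher and 5 (4.63%) were lower, against 2.74% and 4.1% of all probe sets. Groups did not overlap for 7 (6.48%) on the higher and 4 (3.7%) on the lower side, against 3.74% and 5.58% of all probe sets. The median log2 difference of the 108 genes was -0.0059, that of all probe sets -0.0118.

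Among papain-like cysteine proteases other than AT1G02300, 6 of 18 were higher and 12 lower in bzr1-1D. Their median log2 difference was -0.0798, and 0 reached a log2 difference of 1 in size, against 1.43% of all probe sets. AT3G43960 was at 691.1, 536.6 and 828 in bzr1-1D, against 413.7, 453 and 345.6 in det2, so its groups do not overlap (limma, unadjusted p = 0.0263, adjusted p = 0.703). AT3G19390 had a log2 difference of -0.60 ± 0.19 (SE) in the other direction (limma, adjusted p = 0.707). AT2G34080 had 0.59 ± 0.33 (SE), at 47.5 on the det2 array of experiment 3 and 212.1 on its bzr1-1D partner. AT3G45310 had 0.24 ± 0.14 (SE), and AT4G16190, among the brightest of the list with AT4G01610, had -0.15 ± 0.19 (SE).

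Of 7 aspartyl proteases other than AT5G36260, 3 were higher and 4 lower; the median log2 difference was -0.0939. NANA, a protease known from the chloroplast, was at 868.4, 1907.4 and 728.8 in bzr1-1D, against 914.1, 408.6 and 285.1 in det2. The mean log2 difference was 1.08 ± 0.43 (SE; limma, adjusted p = 0.726), from -0.07 in experiment 1 to 2.09 in experiment 2. AT5G10770 had 0.56 ± 0.21 (SE; limma, unadjusted p = 0.0486, adjusted p = 0.726). APA1, a vacuolar aspartic proteinase and the brightest of the list, had -0.22 ± 0.14 (SE), and AT1G62290 had -0.48 ± 0.22 (SE).

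Of 40 subtilases other than SBT4.12, 16 were higher and 24 lower in bzr1-1D, with a median log2 difference of -0.0178. By limma, 1 (2.5%) had an unadjusted p under 0.05 on the higher and 4 (10%) on the lower side, against 2.74% and 4.1% of all probe sets. None passed adjustment. Groups did not overlap for 0 on the higher and 4 (10%) on the lower side, against 3.74% and 5.58% of all probe sets. The gene nearest to SBT4.12 in size of difference was ATSBT5.2, at 152.9, 197 and 214.2 in bzr1-1D, against 215, 501.7 and 696.8 in det2. Like SBT4.12 it had its highest det2 value in experiment 3 and its narrowest gap in experiment 1. Its log2 difference was -1.01 ± 0.25 (SE; limma, unadjusted p = 0.0108, adjusted p = 0.7). AT5G44530 had groups apart with -0.55 ± 0.15 (SE; limma, adjusted p = 0.7), and AT4G20430 had 0.46 ± 0.13 (SE) in the other direction, with overlapping groups. The brightest subtilases, AT2G05920 and ARA12, the latter known for the release of seed coat mucilage, had log2 differences of -0.01 ± 0.15 (SE) and -0.02 ± 0.13 (SE).

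Serine carboxypeptidases, a further family of the vacuole and the secretory route, had 17 of 29 genes higher and 12 lower in bzr1-1D. Of these, 4 (13.8%) had an unadjusted p under 0.05 on the higher side and 0 on the lower side, against 2.74% and 4.1% of all probe sets, and by limma 0 passed adjustment over all probe sets. Of the 4, scpl35 was at 2165.7, 3046.9 and 2437.8 in bzr1-1D, against 1661.1, 2000.2 and 1476.6 in det2 (limma, adjusted p = 0.7). SCPL45, scpl42 and scpl40 had log2 differences of 0.45 ± 0.13 (SE), 0.40 ± 0.13 (SE) and 0.34 ± 0.12 (SE). SCPL49, among the brightest, had -0.23 ± 0.17 (SE).

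The 5 matrix metalloproteinases, which cut proteins at the cell surface, were all higher in bzr1-1D in the mean, with a median log2 difference of 0.54 that was 1.21 without experiment 1. AT1G24140 was at 238.2, 596.3 and 305.1 in bzr1-1D, against 229.4, 15.8 and 42.4 in det2, a log2 difference of 1.76 ± 0.63 (SE; limma, unadjusted p = 0.041, adjusted p = 0.712). Its groups were apart by a narrow margin in experiment 1, where the log2 difference was 0.04, against 3.30 in experiment 2. AT1G59970 had 0.81 ± 0.33 (SE) and MMP 0.54 ± 0.55 (SE). The 4 vacuolar processing enzymes were higher in bzr1-1D in the mean; BETA-VPE, known from seeds, had 0.49 ± 0.17 (SE; limma, adjusted p = 0.712) and GAMMA-VPE 0.04 ± 0.24 (SE). No metacaspase had a named probe set. Of 5 protease inhibitors 3 were higher and 2 lower, with the cystatin CYS1 at -0.06 ± 0.12 (SE), SERPIN1 at 0.14 ± 0.15 (SE) and AT5G47550 at 0.42 ± 0.29 (SE).

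**Figure D3:**
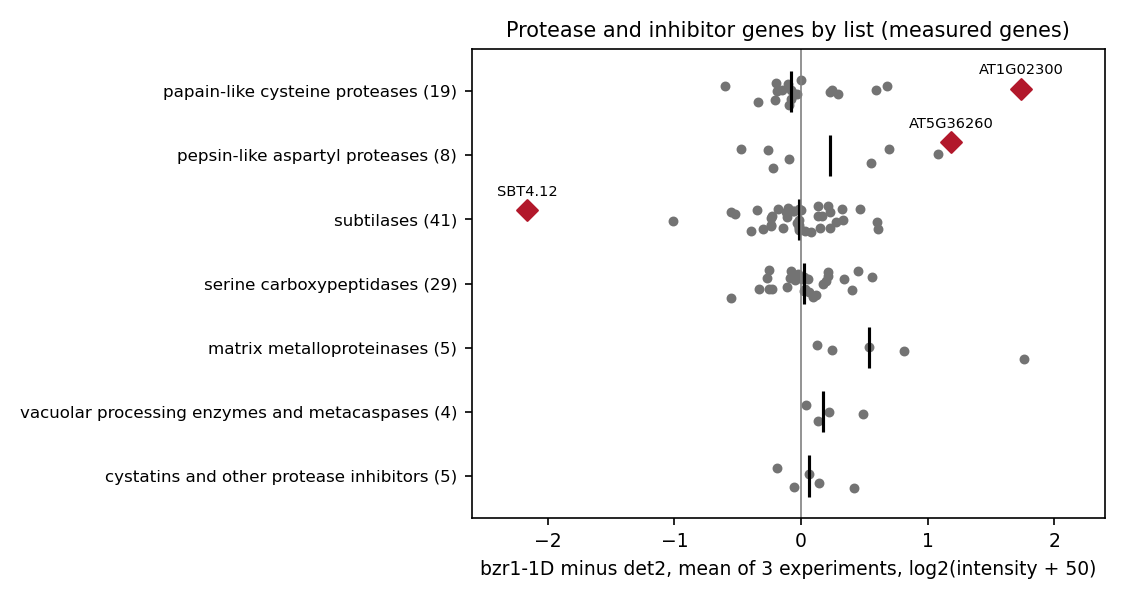
Log2 difference of intensity plus 50, bzr1-1D minus det2, averaged over 3 experiments, for each measured gene of the 7 lists (number measured in brackets), with the 3 chosen genes as red diamonds, the others as grey points and a black bar at the median of each list. AT1G02300 and SBT4.12 lie outside the other genes of their lists, and AT5G36260 lies close to NANA.

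Genes with the most similar profile were sought among 8326 genes with a mean intensity of at least 100, by Pearson's r of log2 intensity plus 50 over the 6 arrays. These arrays share 2 genotypes and 3 experiments, so a gap of the same direction by itself raises r, and r says nothing of the size of the gap. For AT1G02300 the nearest were AT1G14910 (r = 0.989), AT4G01790 (r = 0.985) and AT3G01380 (r = 0.984), with log2 differences of only 0.36, 0.36 and 0.24. For AT5G36260 they were AT4G05160 (r = 0.991), AT1G15270 (r = 0.985) and AT1G28610 (r = 0.978), the last with a log2 difference of 0.89. For SBT4.12 they were AT1G15180 (r = 0.986), AT4G09760 (r = 0.985) and AT1G23890 (r = 0.984). AT1G15180, a MATE transporter, was also near SBT4.12 in size, at 106, 59.8 and 132.3 in bzr1-1D, against 324, 637.7 and 638.9 in det2. An r of at least 0.9 was reached by 58 genes with AT1G02300, 37 with AT5G36260 and 136 with SBT4.12. Between the 3 genes themselves r was 0.790 for AT1G02300 with AT5G36260, -0.911 for AT1G02300 with SBT4.12 and -0.793 for AT5G36260 with SBT4.12, signs that their choice fixed.

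**Figure D4:**
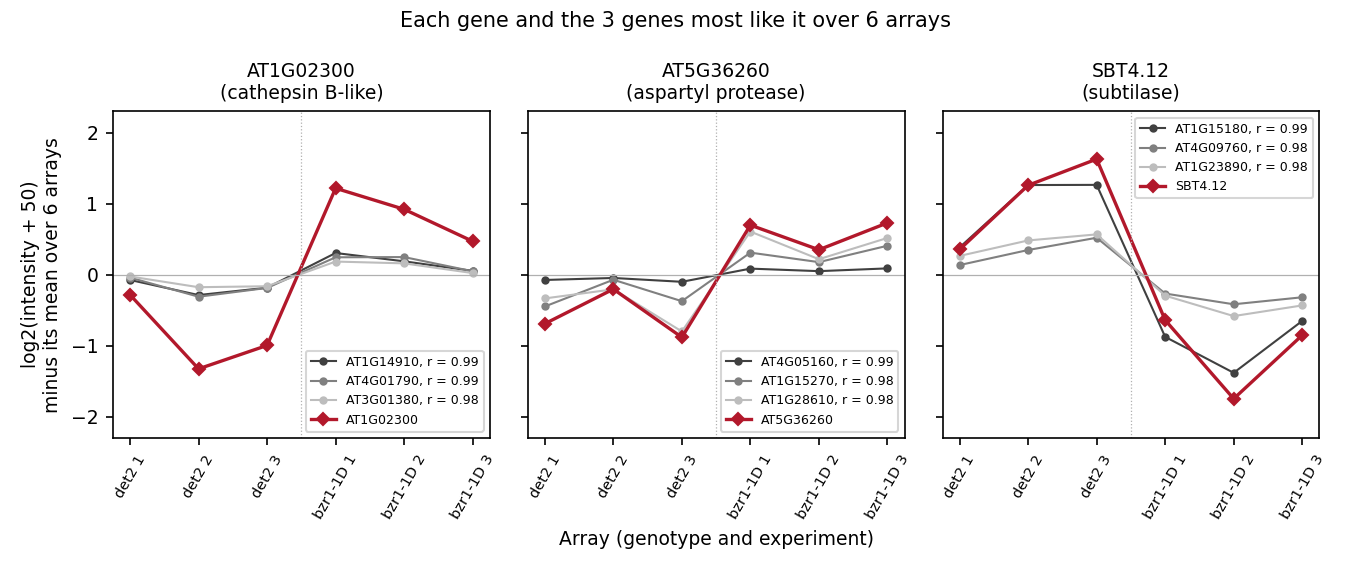
Log2 of intensity plus 50 minus the gene's mean over the 6 arrays, by genotype and experiment, for each of the 3 genes (red) and the 3 genes with the highest Pearson's r (greys), with a dotted line between genotypes; lines join arrays of 1 gene only as a guide. The profiles run parallel, while AT1G02300 spans a far wider range than its nearest genes and AT1G15180 follows SBT4.12 closely.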

How the data were processed

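Per the labels, biotinylated cRNA (15 µg) of whole seedlings was hybridised to 1-colour ATH1 arrays, and the authors obtained intensities with GCOS 1.1 at a target intensity of 500. The deposited values are those linear intensities: the mean trimmed by 2% at either end was 500.04. The labels also describe division by the wild type in GeneSpring 7.0, which these values do not show. The build behind the probe sets is not given in the sources used here.

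Of 22810 probe sets, 64 controls were left out. The platform annotation gave 13513 probe sets 1 gene, 503 several and 8730 none; 13436 matched a locus of TAIR10.1 (13286 genes). Where several probe sets named a gene, one without the s or x suffix was used. Intensities were raised by 50 and log2-transformed, and limma 3.58.1 in R 4.3.3 (lmFit, eBayes, two-sided, Benjamini-Hochberg adjustment over 22746 probe sets) was fitted with genotype and experiment; it was tested on simulated data. Labels give the pairing by experiment. Deviations from the genotype means correlated at 0.39, 0.08 and 0.37 between the arrays of experiments 1, 2 and 3. Between arrays of different experiments they correlated at -0.37 to 0.11, and 0.11 exceeds the 0.08 of experiment 2. With 3 arrays per genotype, called biological replicates, their number limits precision.

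The 3 genes, the lists and the naming rule were chosen with earlier results of these data known. The rule named the 3 genes, their close relatives, per list up to 4 genes of smallest unadjusted p and the 2 brightest, 3 genes of similar profile and 3 measured neighbours on each side. Most list loci come from general knowledge of the families. Promoter motifs and protein sequences were not analysed here. Figures were drawn with matplotlib 3.10.9.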

Additional observations from a re-analysis of the deposited data

How the results depend on the processing

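Alternatives to the offset (16, or none with a floor of 0.1), the scaling (median centring, quantile normalization), a mean intensity of at least 100, robust and trended eBayes, the replicate block and the experiments used were planned together with the tests. Of the 35 alternative values for the log2 differences of the 3 genes, 0 changed sign, but most could not have done so. Each gene kept 1 direction in all 3 experiments, which its choice favours. Leaving out an experiment or changing the offset therefore could not reverse it. The eBayes settings, the block and the intensity filter leave these differences as they are. Only the scaling could have changed a sign, so the count is not read as a test. Leaving out 1 experiment gave 1.49 to 1.88 for AT1G02300, 0.973 to 1.50 for AT5G36260 and -2.75 to -1.74 for SBT4.12. AT5G36260 was 2.20 with no offset, which by construction widens dim differences, and at a mean intensity of at least 100 it was not among the genes tested. The count of probe sets with an adjusted p under 0.05 by limma for the genotype was 0 with the replicate block and 0 when any experiment was left out; with no replicate block it was 1, as it was when experiment entered as a random effect (replicate block as random), and the probe set was none of the 3 genes. At an unadjusted p under 0.05 the count ran from 768 without experiment 3 to 2222 without experiment 1. With only genes of a mean intensity of at least 100, the median log2 difference was 0.0969 for papain-like cysteine proteases and -0.0939 for aspartyl proteases, against -0.0787 and 0.231 over all measured genes of these lists, the chosen genes included. The 0.231 rests on AT5G36260, since the aspartyl proteases without it had -0.0939 with no filter. For matrix metalloproteinases leaving out 1 experiment gave 0.558 to 1.21. For differences between experiments, 0 probe sets passed under any alternative, and the adjusted p of the 3 genes ran from 0.23 to 0.996. The block changed no other call. Intensities below 50 have no detection call here, which limits AT5G36260 in det2.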

Other observations

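Of the 18 nearest measured genes in gene order, 3 on each side of each protease gene, 1 (5.56%) had arrays of the genotypes apart, a share no higher than that over all probe sets, 3.74% on the higher and 5.58% on the lower side. That gene was AT1G02330, which lies close to AT1G02300 and differed in the opposite direction, at 267.5, 220 and 194 in bzr1-1D, against 408.3, 366.3 and 373.8 in det2 (limma, unadjusted p = 0.00514, adjusted p = 0.7). The other neighbours of AT1G02300, AT1G02305 among them, had log2 differences from -0.09 to 0.03. Around AT5G36260 the measured neighbours had log2 differences between -0.35 for AT5G36270 and 0.11 for AT5G36290. Around SBT4.12 they ran from -0.30 for AT5G59100 to 0.18 for AT5G59070. AT5G59080, which lies close to SBT4.12, was higher in bzr1-1D in experiment 1 (198.8 against 115.3) and lower in experiment 3 (197.5 against 368.4).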
